A study of Oryza sativa with 6 samples.

Results

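The miR396 family was examined in small RNA of germinating rice seeds. Its members were taken by name, as every entry of the deposited table that begins with mir396 and no further digit, which gave 24 of 641 miRNA names. They cover the letters a to i and an entry with no letter, with 8 names ending in -5p, 7 ending in -3p and 9 with no arm. All 6 libraries came from seeds of the cultivar Kasalath, an aus-type rice, on damp tissue without medium. The normal group was kept in the laboratory at 25 °C and the hot group in an incubator at 35 °C. Both are labelled as 5 days after germination, with 3 libraries per temperature. The series text calls the libraries biological triplicates but does not say which dishes went into which, so the p-values measure the spread between these libraries.

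In plants, a miRNA precursor folds into a hairpin that is cut to a short duplex, and usually 1 strand is loaded into an Argonaute protein while the other is degraded. For miR396 the 5p strand is the known guide. It pairs with transcripts of growth-regulating factors (GRFs), transcription factors that promote cell proliferation and organ size, and lowers their level. In rice, mutations of the miR396 site in OsGRF4 raise grain size, so the pair is a known regulator of yield traits. The RefSeq gene table of the japonica assembly ASM3414082v1 lists 10 genes under OsGRF synonyms, but no mRNA was measured, so target levels are not analysed here. The table of counts gives names only, and sequences were not used here.

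Depth was shallow and unequal. Counts summed over all names ran from 136294 (normal 2) to 377473 (hot 3) per library. The totals by which the authors divided their normalised values ran from 157488 (hot 1) to 275549 (normal 3). Reads are entered under several names, so a column sum is not a number of reads. The scaling therefore matters: the median log2 fold change of all 253 tested names was 0.01 with TMM (trimmed mean of M-values) scaling and 0.99 with the deposited totals. Values below use TMM unless stated. Those of names are relative to that shift, and the family sum has a TMM scaling of its own.

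Summed over its names, the family was about 3 times as abundant at 35 °C with TMM scaling of the family sums. That scaling differs from the scaling of the names: the TMM-scaled column sum of hot library 3 was 267929 for families and 366268 for names. Its names, with identical rows added once, summed to 8301, 6845 and 12293 counts at 25 °C and to 25059, 41078 and 37667 at 35 °C, in replicate order 1 to 3 as in all such lists. On the scale of the authors' normalised values, which divide by the deposited total, that is 31430, 27352 and 44613 against 159117, 170854 and 154462. The groups were far apart on this scale, with the lowest hot library above 3 times the highest normal library. Among 32 families tested, miR396 was the second most abundant by summed counts, after miR156. It rose with a log2 fold change of 1.65 (SE 0.14, edgeR quasi-likelihood test, adjusted p = 0.000279), in a fit where 21.9% of families were called higher. The median over those families was 0.35, and miR396 ranked 6 from the highest. With other scalings its value ran from 1.16 (column sums) to 2.23 (deposited totals). Rows that are sums of other rows, described below, stay in the family sum, so shared counts enter it more than 1 time. The largest of the 3 sets of counts described below had a log2 fold change of 0.96. That value comes from a fit of names, so it and 1.65 are not on the same scale. These are bulk libraries, in which more cells that make a miRNA and more miRNA per cell cannot be told apart.

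By name, 21 of the 24 members passed the filter on low counts, and mir396e-3p, mir396f-3p and mir396i-3p did not. Of the 21, 14 rose and none was called lower by edgeR's quasi-likelihood test at adjusted p 0.05. The lowest values were those of mir396g and mir396h (unadjusted p = 0.0184 and 0.0421, edgeR quasi-likelihood test). The DESeq2 test called 0 lower, column sums and limma-voom 1 each, and the replicate block and leaving out hot library 1 called 2 each. Of all names, 15.8%, 23.3%, 17.4%, 13.8% and 20.3% were lower in these settings, in that order. In the main edgeR fit, 7.11% of all names tested were called higher and 15.8% lower, and 4 of the 232 names outside the family were higher (1.72%). The median log2 fold change of the 21 was 1.09. With the deposited totals 15 were called higher, where 32.8% of all names were, and the median was 2.01. A count of names overstates the evidence here, because most of the names share reads, as follows.

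**Figure D1:**
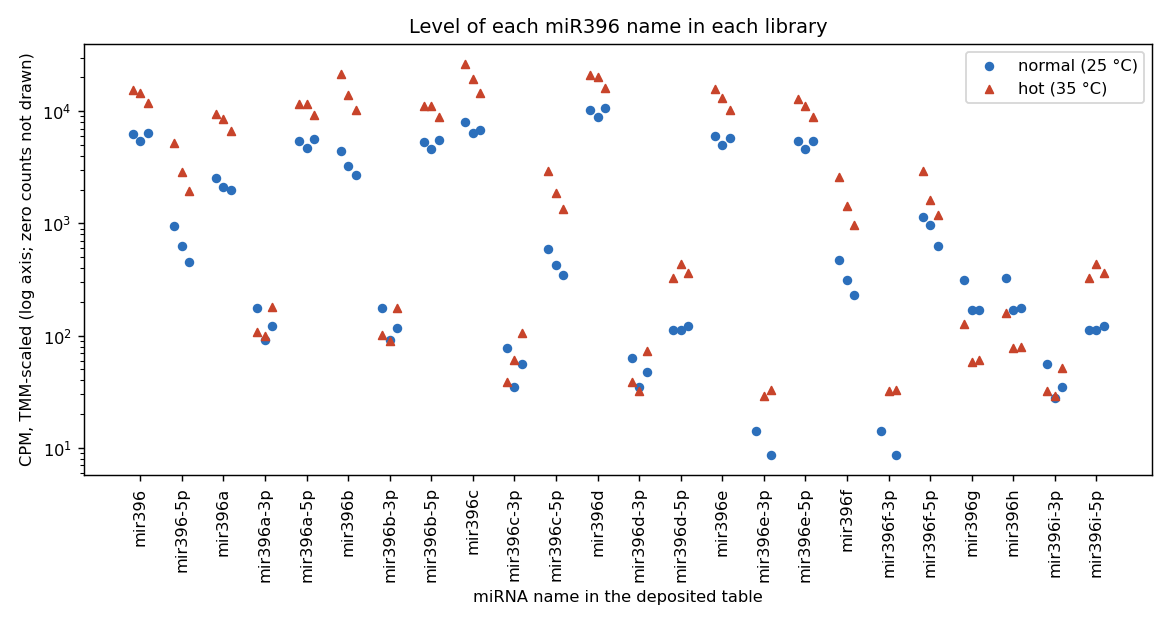
TMM-scaled CPM (log axis) of all 24 miR396 names in the 3 normal (circles) and 3 hot (triangles) libraries, with the 3 libraries of a group set side by side. The hot libraries lie above the normal libraries for 15 names and below for mir396g and mir396h, and the 3p names lie low and mixed.

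The rows of the family are sums of each other. The row mir396-5p is exactly 2 times mir396f in all 6 libraries, and mir396d-5p and mir396i-5p are identical. Beyond such multiples, mir396c-5p is exactly mir396d-5p plus mir396f, mir396a-5p is mir396b-5p plus mir396d-5p, and mir396e is mir396c-5p plus mir396e-5p. All were exact in every library, with no tolerance. Among 23 different rows, 8 equalled a sum of up to 3 other rows with whole weights up to 4.

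In all, 11 names are whole-number combinations of only 3 sets of counts. The first set is the row mir396f, with 68, 45 and 53 counts at 25 °C and 409, 444 and 358 at 35 °C. The second is the row mir396d-5p, with 16, 16 and 28 against 51, 135 and 133. The third is what is left of mir396b-5p after taking away 3 times mir396d-5p, with 705, 608 and 1190 against 1607, 3041 and 2869, called the remainder set here. The table gives no name to the remainder set alone. In terms of remainder, mir396f and mir396d-5p sets, in that order, mir396b-5p has weights 1, 0 and 3, mir396a-5p has 1, 0 and 4, and mir396e-5p has 1, 1 and 0. The weights are 1, 2 and 1 for mir396e, 1, 6 and 2 for mir396c, 1, 1 and 8 for mir396, and 0, 1 and 1 for mir396c-5p. These names are therefore not separate measurements of the family.

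The 3 sets rose by different amounts. With the 11 names replaced by the 3 sets, an alternative chosen after seeing the data, the mir396f set had a log2 fold change of 2.30 (SE 0.44, edgeR adjusted p = 0.0165). The mir396d-5p set had 1.70 (SE 0.24, adjusted p = 0.00449) and the remainder set 0.96 (SE 0.13, adjusted p = 0.00441). In that fit 6 of 12 tested miR396 rows were called higher, against 4.15% of all rows, the other 3 being mir396a, mir396b and mir396d. The 6 rows are not exact sums of one another. They are not taken as separate either, since mir396a, mir396b and mir396d come close to sums of the 3 sets, as described below.

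Within a library the mir396f set gained on the remainder set. The log2 ratio of mir396f to remainder was -3.37, -3.76 and -4.49 at 25 °C and -1.97, -2.78 and -3.003 at 35 °C. The groups do not overlap, and the mean rose by 1.29. The log2 ratio of mir396d-5p to remainder was -5.46, -5.25 and -5.41 against -4.98, -4.49 and -4.43, again without overlap. An exact two-sided permutation test gave p = 0.1 for each, the smallest that 3 against 3 libraries can give, so neither can pass 0.05. The ratio of mir396f to mir396d-5p overlapped between groups (exact permutation p = 0.5). These ratios do not depend on how libraries are scaled.

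The fold change of a name follows the weights. The names made only of the mir396f set, mir396f and mir396-5p, had log2 fold changes of 2.30 each. Next was mir396c-5p with 2.17, of whose counts the mir396f set made up 73.4% ± 7.77 at 25 °C and 79.5% ± 8.36 at 35 °C (SD, n = 3 each). For mir396c, at 1.51, that share was 28.5% ± 7.71 and 48.1% ± 9.63. For mir396e, at 1.22, it was 12.2% ± 3.95 and 24.7% ± 7.32. For mir396e-5p, at 1.09, it was 6.65% ± 2.28 and 14.7% ± 4.90. Names with no part of the mir396f set and mostly remainder had the least, 1.04 for mir396a-5p and 1.02 for mir396b-5p. The name mir396, at 1.21, drew 15.3% ± 1.09 of its normal and 21.8% ± 4.31 of its hot counts from the mir396d-5p set. This is arithmetic of shared counts: the values of 1.02 to 2.30 over these 11 names are mixtures of 3 changes.

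**Figure D2:**
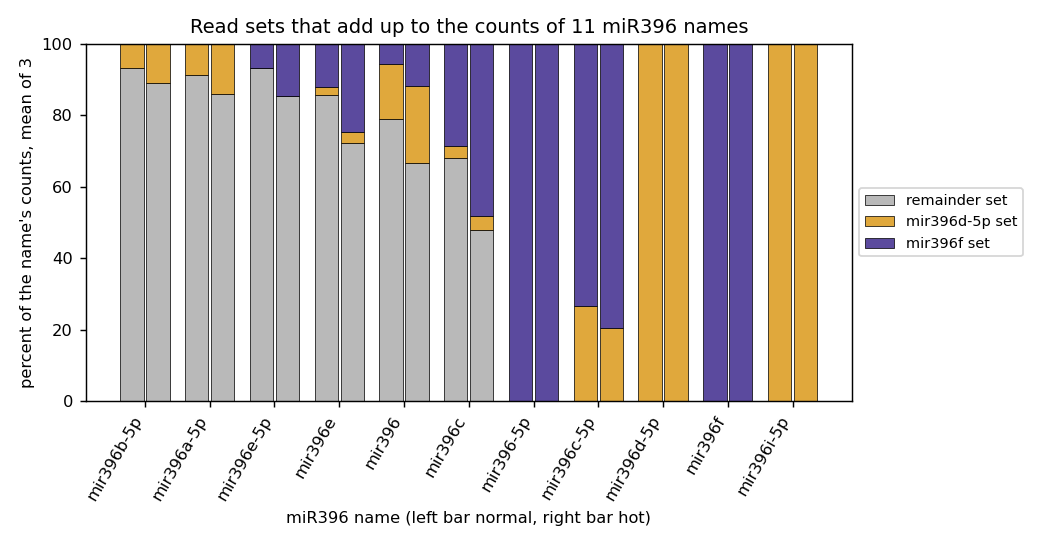
Share of the counts of 11 miR396 names (vertical axis, percent, mean of 3 libraries) that comes from the remainder, mir396d-5p and mir396f sets, for normal (left bar) and hot (right bar) libraries. The mir396f share of mir396c goes from 28.5% to 48.1%, and every name that mixes the remainder with another set has a smaller remainder share at 35 °C.

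The names mir396a, mir396b and mir396d are not exact sums of the 3 sets, but come close to sums of them. The closest weights were looked for after seeing the data, up to 2 for the remainder, 9 for the mir396f and 24 for the mir396d-5p set, with no library below 0. For mir396d they were 2 times the remainder and 1 time mir396d-5p, which left 45, 24 and 40 counts at 25 °C and 20, 19 and 22 at 35 °C. That rest is the row mir396g, exact in 4 libraries and 1 count away in the other 2. For mir396b they were 7 times mir396f and 9 times mir396d-5p, leaving 6 to 51 counts, or 0.688% to 1.74% of the row. For mir396a they were 2 times mir396f and 12 times mir396d-5p, leaving 16 to 132 counts, or 3.49% to 8.89%. So mir396d holds almost only remainder counts by these weights. For mir396a and mir396b a whole weight of the remainder was not possible. In normal library 1 they had 360 and 631 counts, below the 705 of the remainder set. The search therefore cannot tell whether these names hold part of that set. With such freedom in the weights the last pair of matches is less telling than an exact sum. The rises of these names are given next, and are not taken as separate from those of the 3 sets. Whether mir396a and mir396b share reads with the sets was not tested.

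In CPM (counts over the column sum after TMM scaling), mir396a had 2524, 2103 and 1977 at 25 °C and 9463, 8472 and 6615 at 35 °C. Every hot library was more than 2 times any normal one, and mir396a had a log2 fold change of 1.89 (SE 0.16, edgeR adjusted p = 0.00276). The call held in all 17 alternatives, with log2 fold changes from 1.75 to 2.84.

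The name mir396b had the widest range at 35 °C among these 3 names. Its CPM was 4425, 3260 and 2716 at 25 °C and 21331, 14037 and 10219 at 35 °C. The groups do not overlap, although hot library 1 had about 2 times the level of hot library 3. Its log2 fold change was 2.13 (SE 0.31, edgeR adjusted p = 0.00344).

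The name mir396d had the highest summed count of the family, 20589, and a small change beside mir396a and mir396b. Its CPM was 10315, 8806 and 10569 at 25 °C and 20948, 20012 and 16089 at 35 °C. The groups are clearly separate, with a log2 fold change of 0.94 (SE 0.12, edgeR adjusted p = 0.00337), beside 0.96 for the remainder set that makes up nearly all of it.

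The name mir396f-5p missed the threshold. It had 163, 138 and 145 counts at 25 °C and 462, 508 and 431 at 35 °C, with a log2 fold change of 1.07 (SE 0.38, edgeR adjusted p = 0.0871). In CPM the groups are only just apart, at 1143, 968 and 626 against 2946, 1630 and 1177. It was called higher in 6 of 17 alternatives, among them the deposited totals (2.01). In those 6, from 7.96% (no filter) to 32.8% (deposited totals) of all names were called higher. It is not the row mir396f, and taking mir396f away from it leaves 95, 93 and 92 counts at 25 °C and 53, 64 and 73 at 35 °C.

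The names mir396g and mir396h had values of the opposite sign. Counts of mir396g were 45, 24 and 39 at 25 °C and 20, 18 and 22 at 35 °C. The row mir396h differs from mir396g by at most 7 counts in a library, with 47, 24 and 41 against 25, 24 and 29. Neither passed the threshold: the log2 fold changes were -1.44 (SE 0.46, edgeR adjusted p = 0.0675) for mir396g and -1.12 (SE 0.45, adjusted p = 0.0951) for mir396h. All 17 alternatives kept the sign, and 4 of them called mir396g lower and 2 called mir396h lower. Column sums (23.3% of all names lower) and limma-voom (17.4%) called mir396g only. Both names were called with the replicate block (13.8%) and without hot library 1 (20.3%). With the deposited totals the values were -0.49 and -0.17, and the groups overlapped.

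On TMM-scaled CPM, the hot libraries lay wholly above the normal ones for 15 of the 21 tested names and wholly below for 2. Over all tested names 30.4% lay wholly above and 28.5% wholly below. On the scale of the deposited totals, 17 lay above, none below and 4 overlapped, where 43.1% of all tested names lay above.

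**Figure D3:**
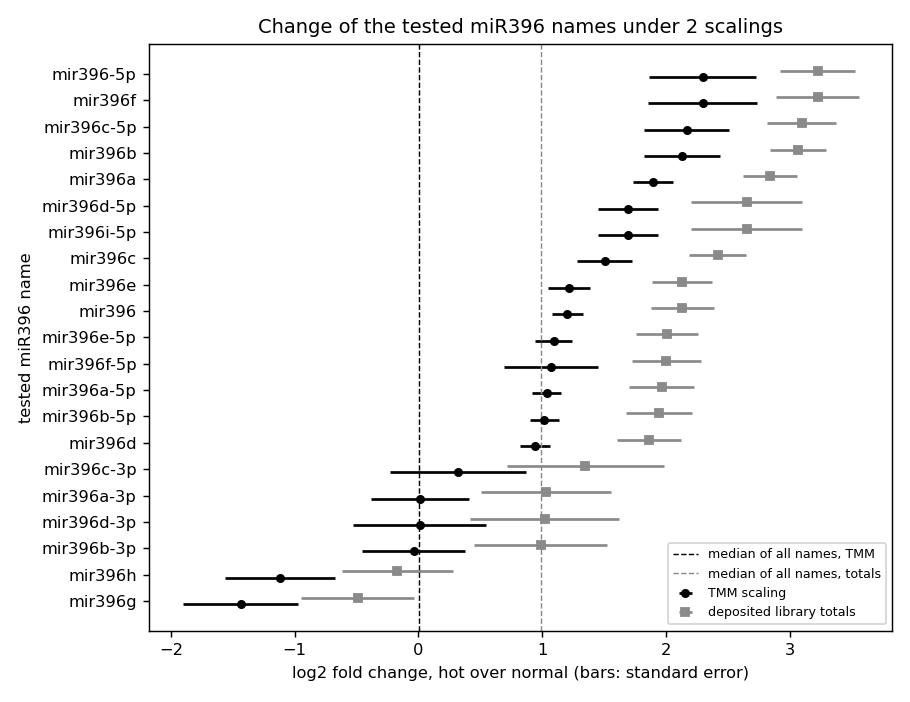
Log2 fold change, hot over normal, of the 21 tested miR396 names (bars, standard error) with TMM scaling (black circles) and with the deposited totals (grey squares). Dashed lines mark the median of all names in each scaling, 0.01 and 0.99, and the 3p names sit near these medians while mir396g and mir396h lie below them.

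Set against mir396a within each library, the rows of the family did not move alike. Many of these rows are combinations of the 3 sets above, so they are not separate members. Of 18 other count patterns, 14 had a log2 ratio to mir396a that was lower in all hot than in all normal libraries, and 4 overlapped. Since mir396a itself rose, 71.6% of the 232 tested names outside the family were also wholly lower against it, so the count of 14 says little about the family. The 4 that overlapped were mir396b, mir396c-5p, mir396d-5p and mir396f, with mean shifts of 0.21, 0.23, -0.22 and 0.34. The mir396d ratio was 2.03, 2.06 and 2.42 at 25 °C and 1.15, 1.24 and 1.28 at 35 °C, a mean shift of -0.95. The hot libraries thus held a smaller excess of mir396d over mir396a. The greatest shifts were those of mir396g, -3.32, and mir396h, -2.99. For mir396g the log2 ratio was -2.99, -3.62 and -3.54 against -6.18, -7.16 and -6.75, with no overlap. Each of the 14 had exact two-sided permutation p = 0.1, the smallest possible, and 0.129 after Benjamini-Hochberg adjustment over the 18, so none can be called.

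**Figure D4:**
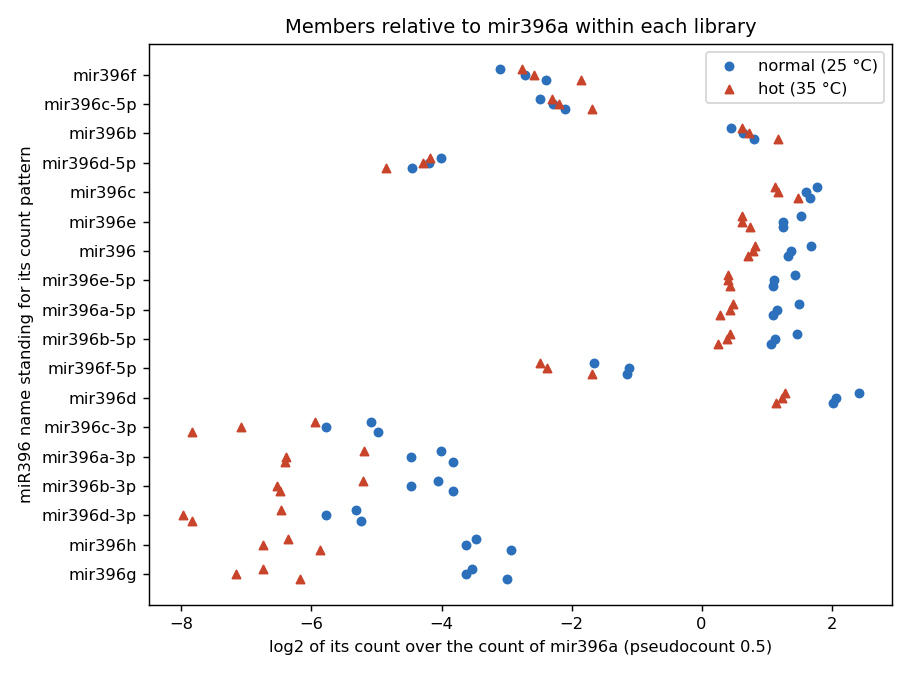
Log2 ratio of the count of each miR396 pattern to that of mir396a within a library (horizontal axis), for 3 normal (circles) and 3 hot (triangles) libraries. Hot triangles sit left of the normal circles without overlap for 14 of 18 patterns, with a mean shift of -3.32 for mir396g.

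The 3p names, which stand for the strand opposite the known guide, did not pass the threshold. Counts of mir396a-3p were 25, 13 and 28 at 25 °C and 17, 31 and 66 at 35 °C, and mir396b-3p differed from it by at most 3 counts. The groups overlap in CPM, and the log2 fold changes were 0.01 (SE 0.40) for mir396a-3p, -0.04 (SE 0.42) for mir396b-3p, 0.32 (SE 0.55) for mir396c-3p and 0.01 (SE 0.54) for mir396d-3p. With these errors a change of the size of mir396d, 0.94, lies within 2 SE of the values of mir396c-3p and mir396d-3p. The 3p rows share counts as well: mir396c-3p is exactly mir396d-3p plus mir396e-3p, and mir396b-3p is mir396d-3p plus 2 times mir396i-3p. At counts this low such sums are less telling than those of the 5p rows. With the deposited totals the 4 values ran from 0.99 to 1.35, near the median of all names there.

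The balance of the arms was compared within each library. For letter a, the 5p count was 30.8, 51.7 and 46.5 times the 3p count at 25 °C and 107, 116 and 51.5 times at 35 °C. Hot library 3, which had the most 3p counts, came close to the normal libraries. For letter c the ratio was 7.64, 12.2 and 6.23 against 76.7, 30.5 and 12.6, and for letter d 1.78, 3.20 and 2.55 against 8.50, 13.5 and 4.93. The rows mir396d-5p and mir396d-3p were thus within a factor of 4 at normal temperature, on 16 to 28 counts of 5p and 5 to 11 of 3p. The row mir396d, with no arm in its name, had 1471, 1256 and 2448 counts there. The ratio is therefore one of rows and may not cover all 5p reads of letter d.

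For 5 of the 7 letters with both arms, a, b, c, d and i, every hot ratio exceeded every normal ratio. Among 70 pairs of 5p and 3p names of other families, 12.9% did so. Those pairs were not put through the filter on low counts, so the 2 shares are not a like comparison. The mean log2 ratios rose by 1.04 (a), 1.09 (b), 1.91 (c), 1.75 (d) and 1.75 (i). Each had an exact two-sided permutation p = 0.1, the smallest possible, and 0.14 after adjustment over the 7 letters, so none can be called. With the name without an arm in place of the 5p name, a and b stayed apart (1.89 and 2.17, exact permutation p = 0.1 each). Letters c and d then overlapped (1.26 and 1.03, exact permutation p = 0.2 each), and i has no such name. Letters e and f overlapped, with 0 counts of 3p in normal library 2 and hot library 1. The letters share reads on both arms and are not replicates. Summed over distinct patterns, the log2 ratio was 4.99, 5.79 and 5.50 at 25 °C and 7.11, 6.71 and 5.56 at 35 °C, which overlap because of hot library 3 (mean difference 1.03, exact permutation p = 0.2). Without that library the mean difference was 1.48.

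**Figure D5:**
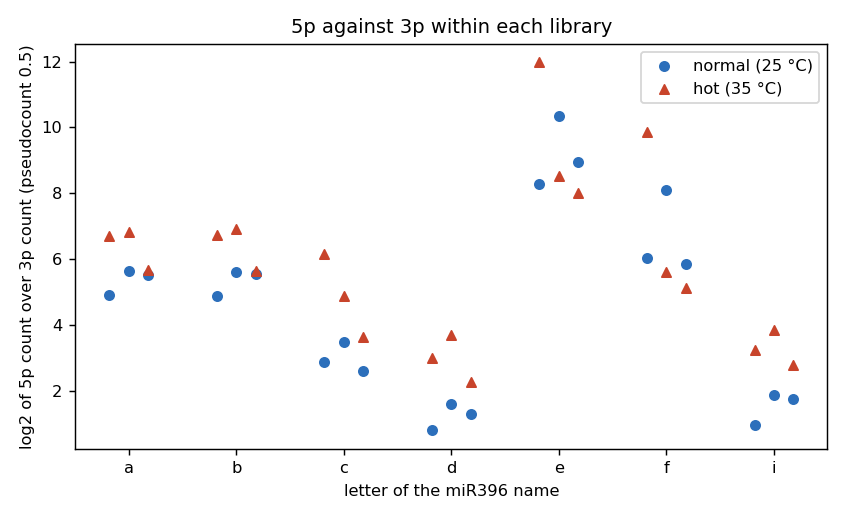
Log2 ratio of 5p to 3p counts within each library (vertical axis, pseudocount 0.5) for the 7 letters with both arms, in normal (circles) and hot (triangles) libraries. For a, b, c, d and i all hot points lie above all normal points, while e and f, with few 3p counts, overlap.

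In rice, miR396 letters d, e and f are known to carry an extra base inside the 5p sequence compared with a, b and c, so these groups of names were compared too. Whether the names of the table follow the rice letters was not tested, since they carry no species prefix. Names d, e and f without the 3p arm summed to 0.895, 0.921 and 0.987 times names a, b and c at 25 °C and to 0.668, 0.722 and 0.739 times at 35 °C. The groups do not overlap, and the log2 ratio was lower by 0.40 (hot minus normal -0.40, exact two-sided permutation p = 0.1, the smallest possible). With -5p names only the difference was -0.01 (exact permutation p = 0.9). The remainder, mir396f and mir396d-5p sets cross the letters, so this ratio does not separate 2 kinds of sequence.

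Other families with a part in growth were read beside miR396, from a list of miR319, miR164, miR156 and miR172. In Arabidopsis, miR319 lowers TCP transcription factors that raise miR396, miR164 targets NAC factors of organ boundaries, and miR156 and miR172 act in opposite ways on phase change. Of 55 tested names, 0 were called higher by edgeR and 8 lower, with a median log2 fold change of 0.21, beside 0.01 over all names. The share lower is near that over all names, 15.8%, and the share higher is below the 7.11% there. The 8 were all 7 tested miR319 names, which hold 3 distinct patterns, and mir156. The most abundant miR319 name, mir319b-3p, had 213, 230 and 292 counts at 25 °C and 136, 277 and 293 at 35 °C, a log2 fold change of -0.77 (SE 0.14, edgeR adjusted p = 0.0107) that turned to 0.21, not called, with the deposited totals. The next, mir319b, had -0.91 and 0.07. The miR164 names mir164a and mir164b had 0.19 each, not called, and mir156a and mir156c 0.21 each, not called with TMM and called at 1.19 with the totals. No miR172 name passed the filter, and mir172a had 0, 0 and 13 against 0, 34 and 14 counts, mir172b 0, 0 and 10 against 0, 28 and 15. With the deposited totals 35 of the 55 were called higher, all of miR156, and 0 lower, where 32.8% of all names were higher. The DESeq2 test (25.3% of all names higher) and TMM without the miR156 names (27.7%) also gave 35 higher. Leaving out hot library 1 gave 34 higher (23.2% of all names), hot library 2 gave 3 (7.06%) and hot library 3 gave 23 (15.2%). All of these were miR156 names, of which 40 were tested, but only 23 with 1 row per distinct pattern. Without normal library 2, 1 was lower (4.92% of all names).

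The names of other families whose profile over the 6 libraries was most like that of mir396a were all of low count. Likeness was the mean absolute difference between log2 profiles, each centred on its own mean, over 154 names with different count patterns, whose median was 1.13. The nearest was mir156b-3p (0.357), with 5, 7 and 7 counts at 25 °C and 32, 49 and 22 at 35 °C. Next came mir5144-5p (0.418), mir393b-3p (0.459), mir1432-5p (0.470) and mir444a (0.506). Of the 5, mir393b-3p was called higher (log2 fold change 3.15, edgeR adjusted p = 0.0119) and the others were not. Within the family mir396b (0.169) and mir396c-5p (0.190) were nearest to mir396a and mir396g (1.66) the farthest.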

How the data were processed

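Per the labels' protocols, a mirVana kit gave the small RNA, and libraries were built with NEBNext small RNA reagents and size-selected on beads. The series text names a MiSeq sequencer. The table deposited by the authors holds, per the file headers, raw counts and a normalised expression score for each miRNA name and library. The deposited score is the count over 1 total per library on a fixed scale. Its sole use was to work out that total (median over rows above 20 counts). The meaning of the total, the mapping tool, the miRNA database and the genome build: not given in the sources used here. Columns were assigned through the sample descriptions. The tissue label could not be checked from miRNA names.

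All 641 names were fitted together in R 4.3.3 by edgeR 4.0.16, using its quasi-likelihood F test after filterByExpr and TMM scaling, with temperature as the sole term, and Benjamini-Hochberg adjustment over the 253 tested names, with a threshold of 0.05. CPM are counts over the TMM-scaled column sum. The SE is the log2 fold change over the square root of F. The family sum had its own fit over 32 families. Ratios within a library used a pseudocount of 0.5 (none for the letter groups) and exact permutation tests. A distinct pattern is the smallest row of a set of identical or whole-multiple rows. Sums of rows were searched with up to 3 addends and weights up to 4. Alternatives were run with DESeq2 1.42.0, limma 3.58.1 (voom), other scalings, no filter, a replicate block and each library left out.

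The members, lists and tests were chosen with earlier results of these data known. Counts in each library were given for the names the results turn on: all 24 names are members, and other names are the 2 most abundant of each listed family and the 5 most like mir396a. Libraries of a group differed by more than counting error in all pairs (chi-square per degree of freedom 3.61 to 13.7), so none was a copy. Counts carry no stated molecular identifiers. The labels name no batch.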

Additional observations from a re-analysis of the deposited data

How the results depend on the processing

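The rise of the miR396 sum was called in all 18 alternatives, with log2 fold changes from 1.16 (column sums) to 2.23 (deposited totals). Between 12 (without normal library 2, or 1 row per distinct pattern) and 15 names were called higher, apart from the 6 rows called once exact sums were replaced by their sets. The share of all names called higher in those settings varied more, from 4.92% (without normal library 2) to 32.8% (deposited totals). Leaving out 1 library gave 12 to 15 higher and 0 to 2 lower. Of all names, 4.92% to 23.2% were then higher and 4.92% to 20.3% lower. Without normal library 2, mir396f and mir396-5p missed the threshold. The count called lower was 0 with TMM, 1 with column sums, 1 with limma-voom and 2 with the replicate block. The shares of all names called lower there were 15.8%, 23.3%, 17.4% and 13.8%. Same-numbered libraries did not deviate together (correlations 0.375, -0.309 and -0.0545), so the numbers are not taken as pairs. With that block 15 names were called higher, where 11.1% of all names were. The family sum then had 1.65, and the arm and letter-group differences were 1.03 and -0.40 (exact sign-flip p = 0.25 each, the smallest possible). In the growth list, 35 were higher and 0 lower with the deposited totals, and 35 were higher with the DESeq2 test and with TMM without miR156. There were 21 higher and 1 lower without a filter (7.96% and 2.34% of all names), and 19 and 4 with 1 row per pattern (18.7% and 16.3%). Lower were 3 with DESeq2 size factors (6.32% of all names) and 3 with TMM without miR396 (6.72%). With 1 library left out, 0 to 34 were higher and 1 to 9 lower. Values not called in any setting changed sign as follows. For mir396a-3p the value was -0.12 with column sums and ran from -0.26 to 0.19 with 1 library left out. For mir396b-3p it was 0.039 (DESeq2 size factors), 0.99 (deposited totals), 0.030 (TMM without miR396), 0.23 (TMM without miR156), 0.13 (no filter), 0.042 (DESeq2 test), 0.0083 (limma-voom), 0.076 (1 row per pattern) and -0.36 to 0.16 with 1 library left out. For mir396c-3p it was -0.12 to 0.58 with 1 library left out. For mir396d-3p it was -0.13 (column sums), -0.013 (limma-voom), -0.024 (replicate block) and -0.17 to 0.17 with 1 library left out. With 1 library left out, the arm difference was -0.93 to 1.05 for letter e and -1.32 to 1.06 for letter f. With the sum of the distinct patterns in place of mir396a as the reference, mir396c had 0.20 and mir396d-5p 0.39. The cause of these changes was not tested. Leaving out 1 library, the summed arm difference ran from 0.71 to 1.48 and the letter-group difference from -0.43 to -0.35. Depth limits the 3p names, of which 3 were not tested, and intervals on low counts would cover counting error only.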
